A study of Homo sapiens with 4 samples.

Results

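Replication-dependent histone genes encode the linker histone H1 and the core histones H2A, H2B, H3 and H4, which package newly copied DNA. They lie in clusters, a large one on chromosome 6 and smaller ones on chromosome 1. Most are transcribed in S phase, and their mRNAs usually end in a conserved stem-loop rather than a polyA tail. The stem-loop is bound by the protein SLBP. Several of these genes also give longer, polyadenylated transcripts that run past the stem-loop, and such forms are known from cells that have left the cycle or differentiate. A library made from polyA RNA therefore records these genes only in part.

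The members were all genes whose symbol is H1-1 to H1-6 or begins with H2AC, H2BC, H3C or H4C followed by a number alone. This took 63 of the 29209 listed genes: 6 of H1, 15 of H2A, 17 of H2B, 12 of H3 and 13 of H4. By position, 50 lie on chromosome 6, 12 on chromosome 1 and 1, H4C16, on chromosome 12. The rule used names only, but this group of genes was chosen with earlier results of these data known. Statistics were limited to the 35 members with at least 20 counts summed over all libraries. The cells were HaCaT, an immortalised human keratinocyte line. They were given lentivirus to make a line that overexpresses TCN1, the gene of a secreted carrier of vitamin B12 (TCN1_OE, 2 libraries), or were labelled as negative control (NC, 2 libraries), with no further word on what the control received. Cells were lysed after 48 hours, and polyA RNA was sequenced. Whether a group's libraries are separate cultures is not stated, so the p-values rest on a spread that may be technical.

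The NC libraries held 19973550 and 11593377 counts, the TCN1_OE libraries 16586500 and 14756073, and TCN1 itself had 50 and 17 against 1700 and 1253 counts. The 10 keratinocyte markers, led by the basal keratins KRT5 and KRT14, summed to between 7809 and 8988 FPKM per library (fragment counts scaled to gene length and library total). The melanocyte, fibroblast, leukocyte and endothelial marker lists each summed to between 0.877 and 3.04 FPKM, with overlapping groups in each list. Of these markers, 3 of 6 for fibroblasts, 1 of 5 for melanocytes and 1 of 3 for endothelium were not among the listed genes. Their sums cover the remaining markers only. In bulk RNA, fewer cells of a kind (here, cells in S phase) and less RNA per cell cannot be told apart. Mitochondrially encoded genes, a guide to RNA quality, held 5.33% and 5.13% of counts in NC and 6.04% and 5.65% in TCN1_OE. Both TCN1_OE libraries thus lay above both NC libraries here, as they did in the histone sum given below, and the part of this in the results was not tested.

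The stem-loop was read from GENCODE v29 transcripts (GRCh38), in which 59 of the 63 members were found by gene ID. It was present in the annotated transcripts of 28 of them and in those of 13 of 58617 other genes (0.0222%). The other genes are all those not matched to a member. They can include histone genes outside the rule and the 4 members not found. Of the 31 members without it, 27 had an annotated length that is a multiple of 3, as models have that end at the stop codon. For models that do end there, its absence says nothing about the RNA. H3C6 is among the 27 with an annotated length of 2679 bases, against 411 in H3C1, so its length does not show such a model. The examples below show the range of members described in the text, 5′ to 3′ as DNA, with the 16-base stem-loop in capitals and up to 5 flanking bases on each side.
H2BC21: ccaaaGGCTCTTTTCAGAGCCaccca
H2AC6: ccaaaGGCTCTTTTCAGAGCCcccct
H2AC8: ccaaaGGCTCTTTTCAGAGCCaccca
H2BC5: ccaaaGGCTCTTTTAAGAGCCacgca
H3C10: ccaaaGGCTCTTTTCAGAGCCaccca
H4C8: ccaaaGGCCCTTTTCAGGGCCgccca
H4C15: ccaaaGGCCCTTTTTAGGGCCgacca
All 8 H4 genes with a stem-loop had the stem that opens GGCCCT, and all 20 genes of the other classes had the one that opens GGCTCT. The annotated transcript ran on for 1729 bases past the stem-loop in H2BC21 and 769 in H3C10, and for 1114 to 1128 in the 2 forms of H2AC6 that hold it. It ran on for 51 in H2AC8 and 39 in the form of H2BC5 that holds it. The 4 forms of H4C8 ended from 18 to 1655 bases past it.

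Promoters differed by class in a set of short motifs. RefSeq (GRCh38.p14) gave a start site for 58 members, and the 250 bases before it were searched on both strands. The octamer ATTTGCAT, the site of the POU factors OCT1 and OCT2 and a known element of H2B promoters, was present in 13 of 17 H2B and 9 of 14 H2A promoters and in none of the H1, H3 and H4 promoters, against 1.66% of 27305 promoters of all genes. In back-to-back H2A and H2B genes the searched windows overlap, so the same site can count for both partners. The octamers of H2BC21 and H2AC20, at -46 and -197 from their starts, are such a shared site. The H1 element AAACACA was present in 6 of 6 H1 promoters and in no other member, against 4.95% of all promoters. CCAAT, the site of the factor NF-Y, was present in every H1, H2A, H2B and H3 promoter found and in 1 of 11 H4 promoters, against 33.0% of all. TATAAA was present in 38 of 58 members, against 11.1% of all. The promoters printed are that of H2BC21, the member that passed the test, that of H2BC5, an H2B gene without the octamer, and those of the H1, H3 and H4 genes with the most counts. They are printed in the direction of transcription, and capitals mark these motifs on either strand.
H2BC21, chr1:149886683-149886932, minus strand: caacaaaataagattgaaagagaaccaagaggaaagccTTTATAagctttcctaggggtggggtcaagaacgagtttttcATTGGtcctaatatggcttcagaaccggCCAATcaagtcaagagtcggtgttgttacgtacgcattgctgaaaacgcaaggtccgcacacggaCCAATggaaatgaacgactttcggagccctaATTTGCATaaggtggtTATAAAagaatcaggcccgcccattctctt
H2BC5, chr6:26157871-26158120, plus strand: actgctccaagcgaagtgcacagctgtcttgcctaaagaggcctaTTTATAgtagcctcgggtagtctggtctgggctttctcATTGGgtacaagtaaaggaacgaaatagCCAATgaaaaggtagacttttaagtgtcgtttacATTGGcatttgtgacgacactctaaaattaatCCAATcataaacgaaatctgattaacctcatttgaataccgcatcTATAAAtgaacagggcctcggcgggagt
H1-2, chr6:26056471-26056720, minus strand: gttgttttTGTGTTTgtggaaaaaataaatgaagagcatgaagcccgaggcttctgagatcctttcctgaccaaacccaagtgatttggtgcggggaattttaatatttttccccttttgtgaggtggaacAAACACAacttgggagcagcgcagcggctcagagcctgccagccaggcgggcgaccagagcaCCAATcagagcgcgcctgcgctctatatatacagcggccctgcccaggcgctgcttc
H3C6, chr6:26223928-26224177, plus strand: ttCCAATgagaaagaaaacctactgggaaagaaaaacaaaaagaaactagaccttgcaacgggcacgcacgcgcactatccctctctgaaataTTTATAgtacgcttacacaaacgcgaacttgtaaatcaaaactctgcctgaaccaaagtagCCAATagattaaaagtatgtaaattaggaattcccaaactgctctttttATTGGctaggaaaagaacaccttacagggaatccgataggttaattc
H4C8, chr6:26285535-26285784, minus strand: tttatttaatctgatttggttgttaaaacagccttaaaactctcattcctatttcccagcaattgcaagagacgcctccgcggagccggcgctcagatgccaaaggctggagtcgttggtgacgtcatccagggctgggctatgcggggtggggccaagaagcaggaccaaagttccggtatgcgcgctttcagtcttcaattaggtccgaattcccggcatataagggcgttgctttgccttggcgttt
Among H2A and H2B genes with a test, the 13 with the octamer had a median log2 fold change of 0.51 and the 6 without it 0.27, a description only. The 13 hold a larger share of H2B genes than the 6, and partners can share a site, so octamer and class cannot be told apart here. A match is a run of letters and not a shown binding site.

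Histone genes took a small part of these libraries, and a few genes held most of it. All members together had 4381 and 2355 counts in the NC libraries, which is 0.0219% and 0.0203% of each total. In the TCN1_OE libraries they had 4731 and 4005 counts, or 0.0285% and 0.0271%. The 4 members with the most counts, H2AC6, H2BC12, H2BC5 and H2BC21, held 57.4% of all 15472 member counts. Within its class H1-2 held 93.7% of the counts and H2AC6 85.1%, while H2BC12 held 30.2%, H3C6 42.2% and H4C8 37.5%. Per gene length, H2B genes together gave 48.4% of the summed FPKM of all members, H2A 22.4%, H1 13.0%, H4 8.51% and H3 7.75%. The 28 members under 20 counts held 1.50% of the counts, and 17 members had no count in at least 1 library.

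**Figure D1:**
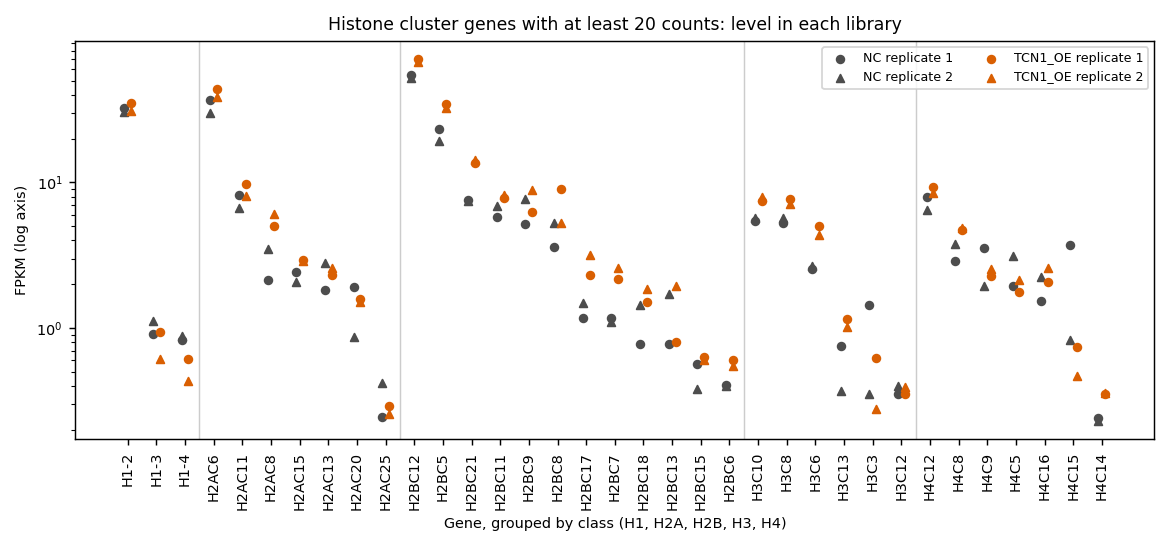
FPKM (vertical, log axis) of the 35 tested histone genes in each of the 4 libraries, NC in grey and TCN1_OE in orange, circles for replicate 1 and triangles for replicate 2. H2BC12, H2AC6, H1-2 and H2BC5 stand highest, and H4C15 in NC replicate 1 stands apart from its other 3 values.

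The summed level of all members was 1.31-fold higher in TCN1_OE, and the classes shared in this unequally. On a scale of CPM (counts scaled to library size) with TMM (trimmed mean of M-values) library scaling, the sum over all 63 members was 218.6 and 205.4 in NC and 282.2 and 273.4 in TCN1_OE, so the groups did not overlap. H2B genes summed to 80.8 and 80.6 in NC against 119.3 and 120.4 in TCN1_OE, which is 1.48-fold. The SD within a group was at most 0.780 (n = 2), but 2 values that happen to lie close do not measure the precision of these sums. H3 genes summed to 17.9 and 18.9 against 28.2 and 27.8, or 1.52-fold. H2A genes summed to 71.0 and 60.7 against 84.9 and 77.1, or 1.23-fold, and here too the groups did not overlap. H1 genes stood at 25.5 and 24.2 against 26.6 and 23.8, and H4 genes at 23.3 and 21.0 against 23.2 and 24.2, with overlapping groups in both. Beside the H4 sum stands the gene H4C15, whose counts came mostly from NC replicate 1. Without it, an alternative chosen after seeing the data, the H4 log2 ratio moved from 0.10 to 0.34. The smallest two-sided p of an exact permutation test on 2 against 2 libraries is 0.333, so these sums are given as values with no test.

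**Figure D2:**
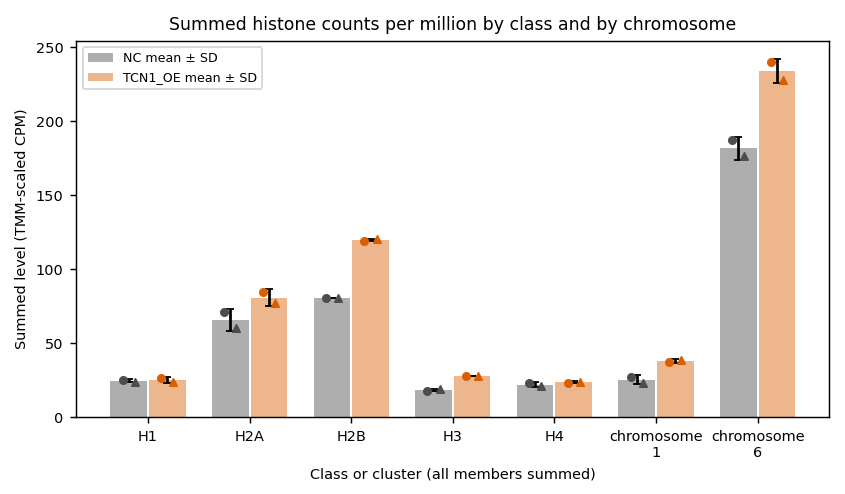
TMM-scaled CPM summed over all members of each class and of the chromosome 1 and chromosome 6 members, with group mean ± SD as bars from 0 and the single libraries as points. The H2B sums lie at 80.6 to 80.8 in NC and 119.3 to 120.4 in TCN1_OE, while those of H1 and H4 overlap.

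Gene by gene, 1 of the 35 tested members passed, H2BC21, which rose. Over all 17112 genes with at least 20 counts, edgeR's quasi-likelihood test called 49 higher (0.286%) and 46 lower (0.269%) at a Benjamini-Hochberg adjusted p under 0.05. At an unadjusted p under 0.05, 8 members were higher and 1 lower, against 5.49% and 6.41% of all genes. The log2 fold change was positive in 27 of 35 members, against 50.5% of all genes, and the median was 0.34 against 0.00 over all genes tested. Both TCN1_OE libraries lay above both NC libraries in 19 members, or 54.3%, where 21.0% of all genes did so. Both lay below in 2 members, H1-4 and H4C15, where 21.4% of all genes did. The ratio was positive within replicate 1 and within replicate 2 alike in 24 members and negative in both in 5. No label says that same-numbered libraries belong together, and the share over all genes is not given, so this is a description. All 12 members with at least 200 counts lay above 0, around a median of 0.40, against 46.2% of all genes at that depth. Among the 23 members with fewer counts 15 were positive, with a median of 0.24 and a median standard error of 0.52. A lack of calls at that depth does not show that these genes stayed level.

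**Figure D3:**
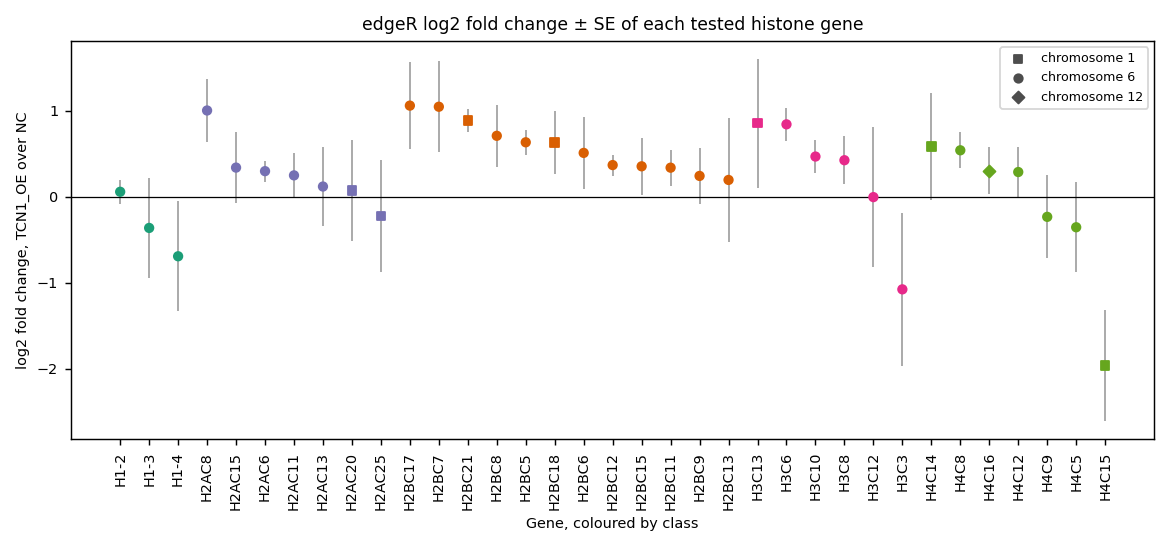
edgeR log2 fold change of TCN1_OE over NC (points) ± SE (bars) for the 35 tested histone genes, coloured by class, with squares for chromosome 1, circles for chromosome 6 and a diamond for chromosome 12. All 12 H2B genes lie above 0, and H4C15 at -1.96 is the lowest.

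In H2B all 12 tested genes lay above 0, from 0.19 to 1.06 around a median of 0.57. Both TCN1_OE libraries lay above both NC libraries in 9 of the 12, where 21.0% of all genes did so. H2BC21 (ENSG00000184678, chromosome 1, 149884459 to 149886682, minus strand, RefSeq positions on GRCh38.p14 here and below) encodes an H2B known to persist outside S phase in polyadenylated form. It had 334 and 191 counts in NC and 502 and 465 in TCN1_OE, or 7.52 and 7.41 against 13.6 and 14.2 FPKM. Both TCN1_OE values lay far above both NC values, and the replicates of each group lay close together. The log2 fold change was 0.89 ± 0.14, or 1.85-fold, with an edgeR adjusted p of 0.0269. It was 0.84 within replicate 1 and 0.93 within replicate 2. Of all genes tested, 4.65% had a log2 fold change above it. The call was lost only with limma on log2(FPKM + 0.5) and on log2(FPKM + 0.1), with adjusted p of 0.180 and 0.158; over the other alternatives run its adjusted p lay between 1.03e-11 and 0.0322. DESeq2 called H2BC21 alone of the members, with 0.625% of all genes called higher, but gave no adjusted p for 16 of the 35. Without a filter on low counts, edgeR called 3 members higher (0.685% of all genes), namely H2BC21, H2BC5 and H3C6, and 1 lower (0.941%). With the replicate number as a block it called 7 higher (7.14%) and 1 lower (10.2%). The 1 lower call was H4C15 in both, a gene whose value rests on NC replicate 1, as given below.

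The other abundant H2B genes had smaller values and did not pass. H2BC5 (chromosome 6, 26158121 to 26171349) had 23.4 and 19.3 FPKM in NC and 34.4 and 32.5 in TCN1_OE, groups that did not overlap. On the log2 scale it stood 0.63 ± 0.14 higher (edgeR adjusted p 0.0914), and it passed without NC replicate 1, at 0.78 with an adjusted p of 0.0243, where 0.678% of all genes were called higher. H2BC12 (chromosome 6, 27138293 to 27146858), the most abundant member per length, had 54.5 and 51.8 FPKM in NC and 70.5 and 67.5 in TCN1_OE. The log2 difference was 0.37 ± 0.12 (edgeR adjusted p 0.252). In GENCODE v29, 71.6% of the 100-base stretches of H2BC12 occur in no other gene, so reads from its coding part can be lost or shared with other H2B genes. The 2 largest values of the class, H2BC17 at 1.06 ± 0.51 and H2BC7 at 1.04 ± 0.53, rest on 59 and 52 counts and did not pass. H2BC8 stood at 1.27 within replicate 1 and at -0.01 within replicate 2. These 3 genes were chosen after their values were seen.

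The 7 tested H2A genes had a median of 0.25, 6 of them above 0, and none passed. Leaving out NC replicate 1 moved the median to 0.44, and leaving out NC replicate 2 moved it to 0.18. H2AC6 itself moved to 0.44 and 0.18 likewise. H2AC6 (chromosome 6, 26124172 to 26124690), the member with the most counts, had 36.7 and 30.1 FPKM in NC and 44.1 and 38.7 in TCN1_OE. The groups did not overlap but lay close, and the log2 difference was 0.30 ± 0.12 (edgeR adjusted p 0.363). H2AC8 (chromosome 6, 26216921 to 26217437) had 2.13 and 3.50 FPKM in NC and 5.01 and 6.03 in TCN1_OE, a log2 fold change of 1.00 ± 0.37 with an adjusted p of 0.305 on 132 counts. The groups did not overlap, and the value was 0.64 without NC replicate 1 and 1.37 without NC replicate 2. H2AC11 had 8.23 and 6.65 FPKM in NC and 9.78 and 8.11 in TCN1_OE, with overlapping groups.

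Among the H3 genes the 3 with the most counts, all on chromosome 6, had positive values, and none passed. H3C6 (chromosome 6, 26224178 to 26227473) had 2.54 and 2.67 FPKM in NC and 5.00 and 4.38 in TCN1_OE. With a log2 difference of 0.84 ± 0.19 and an edgeR adjusted p of 0.0890 it did not pass. It passed without a filter on low counts (0.0170) and with the replicate block (9.24e-05). H3C10 had 5.41 and 5.73 FPKM in NC and 7.48 and 7.97 in TCN1_OE, a log2 fold change of 0.47 ± 0.20 with an adjusted p of 0.375. H3C8 had 5.25 and 5.74 FPKM against 7.66 and 7.10, at 0.42 ± 0.28. In all 3 both TCN1_OE libraries lay above both NC libraries, where 21.0% of all genes did so. The other 3 tested H3 genes had 20 to 25 counts and lay between -1.08 and 0.85.

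Of the 7 tested H4 genes 4 had positive and 3 negative log2 fold changes, and none passed. The negative ones were H4C15, H4C9 at -0.23 ± 0.48 and H4C5 at -0.35 ± 0.52, the last named here after its values were seen. H4C8 (chromosome 6, 26285126 to 26285534) had 2.89 and 3.75 FPKM in NC and 4.74 and 4.89 in TCN1_OE, at 0.54 ± 0.21 with an edgeR adjusted p of 0.325. H4C12 had 7.89 and 6.46 FPKM against 9.35 and 8.41, at 0.29 ± 0.29, and none of its 100-base stretches is unique to it in GENCODE v29. H4C9, with 3.53 and 1.96 FPKM in NC and 2.28 and 2.56 in TCN1_OE, had overlapping groups. H4C15 (chromosome 1, 149844488 to 149861240) had 140 counts in NC replicate 1, 18 in NC replicate 2, and 23 and 13 in TCN1_OE. Its log2 fold change of -1.96 ± 0.64 (edgeR adjusted p 0.276) rests on that 1 library, since it was -0.46 without NC replicate 1, and -2.61 with an adjusted p of 9.27e-09 without NC replicate 2, where 0.619% of all genes were called lower. Its neighbour H4C14, named here after its values were seen, had 9 and 5 counts in NC and 11 and 10 in TCN1_OE. Of the 100-base stretches of H4C15 and H4C14, 2.90% and 5.13% are unique, so the split of reads between them is uncertain. Among the members with at least 10 counts, NC replicate 1 was more than 2-fold above every other library in 3 genes, H4C15, H1-5 and H3C3, of which the latter pair had 14 counts each there.

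H1 genes summed to nearly the same level in both groups, as said above. H1-2 (chromosome 6, 26055740 to 26056470), the linker histone with nearly all H1 counts, had 32.3 and 30.4 FPKM in NC and 34.9 and 30.8 in TCN1_OE. The groups overlapped, and the log2 fold change was 0.06 ± 0.14, against 0.37 ± 0.12 for H2BC12 at a like depth; the difference between the 2 genes was not tested. H1-3 and H1-4 had 43 and 34 counts, at -0.36 ± 0.58 and -0.69 ± 0.64. Just outside the count minimum stood H1-5, with 14 and 1 counts in NC and 2 and 1 in TCN1_OE, and just inside stood H3C12, with 6 and 4 against 5 and 5.

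The chromosome 1 and the chromosome 6 members both summed higher in TCN1_OE, but the chromosome 1 sum moved strongly with the genes H2BC21 and H4C15. The 12 chromosome 1 members summed to 27.6 and 23.5 CPM in NC and 37.3 and 39.0 in TCN1_OE, or 1.49-fold. Without H2BC21 the log2 ratio of this sum turned from 0.58 to -0.28, with the 140 counts of H4C15 in NC replicate 1 still in it. Without H4C15, chosen after seeing the data, the ratio was 0.80. No sum without both genes was taken. The 50 chromosome 6 members summed to 187.2 and 176.4 against 239.9 and 228.1, or 1.29-fold, with no overlap in either cluster. The median log2 fold change was 0.58 over 7 tested genes on chromosome 1, with 5 positive, and 0.34 over 27 on chromosome 6, with 21 positive. On log2(FPKM + 0.5) the order of these medians turned, with 0.22 for chromosome 1 and 0.29 for chromosome 6. H4C16, alone on chromosome 12, had 1.53 and 2.25 FPKM in NC and 2.06 and 2.57 in TCN1_OE, with overlapping groups.

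Members differed in how much of the locus was counted. The gene length behind the deposited FPKM ran from 386 to 5002 bp with a median of 508 bp, and in 46 of 63 members it equalled the span of the RefSeq gene. Of the tested members, 13 had a length of at least 1000 bp, which takes in sequence beyond the short stem-loop mRNA or other exons. Among these 11 were positive, with a median log2 fold change of 0.47, and the groups did not overlap upward in 10 of 13 (76.9%). Among the 22 shorter ones 16 were positive, with a median of 0.24, and 9 (40.9%) lay apart upward. Over all genes tested 50.5% were positive and 21.0% lay apart upward. The longer genes also had smaller errors, with a median standard error of 0.27 against 0.47, so length and precision cannot be told apart here. H2AC8, H2BC5 and H2BC12 lie on the short side, with 517, 861 and 495 bp, and H4C15 on the long side, with 1878 bp.

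**Figure D4:**
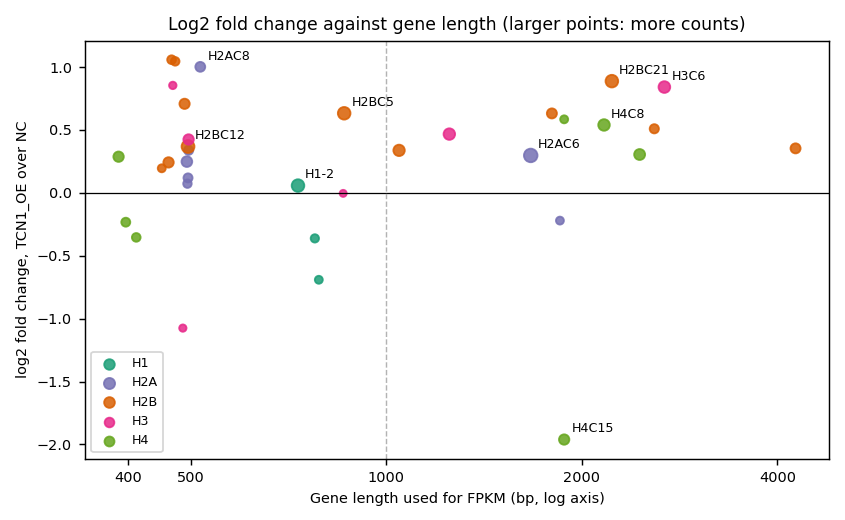
Log2 fold change of TCN1_OE over NC (vertical) against the gene length used for FPKM (horizontal, log axis, dashed line at 1000 bp) for the 35 tested histone genes, coloured by class, with larger points for more counts. Of the 13 longer genes 11 lie above 0, with H4C15 as the far exception.

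H2A and H2B genes often start back to back and share the region between them. Among the 58 members with a start site in RefSeq 10 such pairs were found, with 194 to 248 bp between the starts. H2AC12, which lies beside H2BC12, had no start site there and could not be paired. Mean levels over the 4 libraries were alike in H2AC11 and H2BC11, at 8.19 and 7.17 FPKM, and in H2AC8 and H2BC8, at 4.17 and 5.79 FPKM. They were far apart in H2AC6 and H2BC4, at 37.4 and 0.0840 FPKM with 3975 and 17 counts. H2BC21 and its partner H2AC20 (236 bp between their starts) stood at 10.7 and 1.47 FPKM with 1492 and 48 counts, and the counted lengths were 2224 and 494 bp. The log2 fold change was 0.89 ± 0.14 in H2BC21 and 0.07 ± 0.58 in H2AC20, an error too large to tell the partners apart. Both partners could be tested in 5 pairs, and in 4 of these the H2B gene had the larger value. Some of these differences lay far below the errors, as in H2AC15 at 0.34 ± 0.41 and H2BC15 at 0.35 ± 0.33. In the other pair H2AC8 stood at 1.00 ± 0.37 and H2BC8 at 0.71 ± 0.36. No difference between partners was tested.

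**Figure D5:**
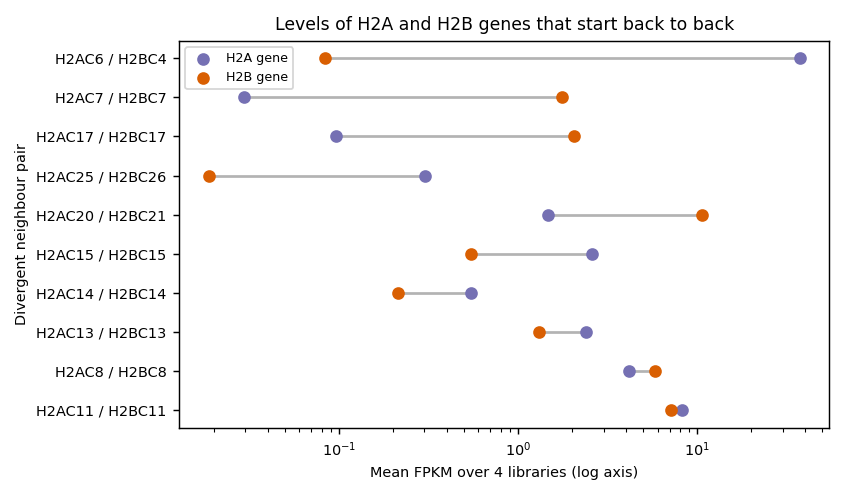
Mean FPKM over the 4 libraries (horizontal, log axis) of the H2A and H2B gene of each of the 10 back-to-back pairs, sorted by how far the partners differ. The partners lie farthest apart in H2AC6 and H2BC4 and closest in H2AC11 and H2BC11.

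Most genes that serve histone mRNA and histone proteins had negative log2 fold changes, and none of those tested passed edgeR. In the separate list of S phase genes only CDC6 passed. These lists were chosen with earlier results of these data known. Beside the counts that follow stand the 50.5% of all genes with a positive value and their median of 0.00. Of all genes, 21.0% had both TCN1_OE libraries above both NC libraries and 21.4% had both below. The edgeR test called 0.269% of all genes lower. Of 22 tested factors of histone gene transcription and mRNA processing 19 were negative and 3 positive, with a median of -0.21; in the 3 positive ones, HINFP, MIF4GD and TUT7, named here after their values were seen, both TCN1_OE libraries lay above both NC libraries. SLBP, which binds the stem-loop, had 36.6 and 35.5 FPKM in NC and 28.9 and 29.4 in TCN1_OE, at -0.32 ± 0.10 with an edgeR adjusted p of 0.247. NPAT, the coactivator of histone genes that cyclin E and CDK2 switch on, stood at -0.11 ± 0.11. The exonuclease ERI1, which trims histone mRNA ends, had 2.14 and 0.865 FPKM in NC and 0.841 and 0.701 in TCN1_OE (edgeR adjusted p 0.302), and the RNA-binding factor SRRT stood at -0.27 ± 0.10. Of 18 tested histone chaperones 14 were negative and 4 positive, with a median of -0.20 and none called. Among them the CAF-1 subunit CHAF1B stood at -0.50 ± 0.14 and the FACT subunits SSRP1 and SUPT16H at -0.29 ± 0.08 and -0.25 ± 0.08. Of 15 S phase genes all were negative, with a median of -0.38, and both TCN1_OE libraries lay below both NC libraries in all 15. One passed, the helicase loader CDC6, at -0.58 ± 0.09 with an edgeR adjusted p of 0.0269; MCM6 and RRM2 stood at -0.45 ± 0.09 and -0.42 ± 0.09.

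Variant histones, most of which are made from ordinary polyadenylated mRNAs through the cell cycle, did not stand higher in TCN1_OE as the H2B and H3 sums did. Of 11 tested, 3 were positive and 8 negative, with a median of -0.11 and none called by edgeR. H3-3A and H3-3B, which encode H3.3, stood at 0.06 ± 0.09 and 0.02 ± 0.08. H2AX, the variant phosphorylated at DNA breaks, is known to give a stem-loop mRNA as well as a polyadenylated one; it and H2AZ1 stood at -0.23 ± 0.11 and -0.25 ± 0.10, and MACROH2A1 at -0.13 ± 0.09.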

How the data were processed

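PolyA RNA of 4 HaCaT libraries, 2 a group, had been sequenced. The deposited table gives raw read counts per gene, made by the authors with HISAT2 and HTSeq 0.13.5 on GRCh38, per the submitters' processing notes. For annotation release, strand and multi-mapping reads, settings were not given in the sources used here. Deposited FPKM values were made by the authors from these counts and a gene length, which was read back from the table. The histone genes and the companion lists were chosen with earlier results of these data known.

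Counts were tested with edgeR 4.0.16 in R 4.3.3 (TMM factors, robust quasi-likelihood fit on group, all 4 libraries) over the 17112 genes with at least 20 counts in all, with Benjamini-Hochberg adjustment and a threshold of 0.05. Fold changes are given on the log2 scale with their standard error. Alternatives were DESeq2 1.42.0, limma 3.58.1 on log2(FPKM + 0.5) and log2(FPKM + 0.1), other filters and scalings, a replicate block, and leaving out each library. Genes named were every member past the threshold, in each class the 3 with the highest mean FPKM and the 2 with the smallest p, those beside the count minimum, and from each companion list up to 3 with the smallest p plus SLBP, NPAT, H2AX, H2AZ1, H3-3A and H3-3B (a further gene of this rule is not reported here). The mitochondrial and cell type marker lists are given as sums, without the genes this rule names there. Others are said to be chosen afterwards or illustrate pairs and clusters. Stem-loops and unique stretches of 100 bases came from GENCODE v29, which need not be the authors' annotation, and promoters from RefSeq GRCh38.p14. Of the companion lists, 23 non-polyadenylated RNAs were not listed and gave no value. The same holds for 3 late chromosome 1 histone genes under the symbols used, 1 of 23 transcription and processing factors and 2 of 21 chaperones. Among the cell type markers, 3 fibroblast, 1 melanocyte and 1 endothelial gene were not listed either.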

Additional observations from a re-analysis of the deposited data

How the results depend on the processing

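Over those of the 12 alternatives in which they had a value, 22 of the 35 tested members stayed positive, 3 stayed negative and 10 changed sign; filterByExpr kept 31 of them. With no filter on low counts, 3 members were called higher and 1 lower (0.685% and 0.941% of all genes), and with limma on either pseudocount 0 were called higher. The labels number the libraries of both groups alike, and same-numbered libraries correlated by 0.15 in their deviations over 15113 genes; no label says what a number marks, and 2 pairs cannot settle whether it is a shared batch. With a replicate block 7 members were called higher and 1 lower, among 7.14% and 10.2% of all genes. Leaving out 1 library gave 1 to 2 members called higher (2 without NC replicate 1) and 0 to 1 called lower (without NC replicate 2). It gave medians of 0.35 to 0.48 over all members, -0.69 to -0.11 for H1, 0.18 to 0.44 for H2A, 0.46 to 0.61 for chromosome 1 and 0.34 to 0.43 for chromosome 6, and a chromosome 1 sum of 0.47 to 0.70 (log2). On log2(FPKM + 0.5) the median was 0.42 for H2B, 0.22 for chromosome 1 and 0.29 for chromosome 6, and on log2(FPKM + 0.1) it was 0.45 for chromosome 1. These pseudocounts shrink low genes by construction. The log2 ratio of the H1 sum was -0.59 without H1-2, that of H2B 0.58 with library totals only and 0.66 without H2BC12, and that of H3 0.45 without H3C6. The H4 sum turned to -0.17 without H4C8 and was 0.34 without H4C15. The chromosome 1 sum turned to -0.28 without H2BC21 and was 0.80 without H4C15. The H4 and chromosome 1 sums that turned negative still held H4C15, whose counts came mostly from NC replicate 1. The sums without H4C15 were chosen after seeing the data. The other causes were not tested. Depth limits the 23 members under 200 counts, with a median standard error of 0.52, and polyA selection limits what is seen of mRNAs that end in the stem-loop.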
